A study of Mus musculus with 30 samples.

Results

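The 10 genes described here, whose RNA was higher in heterozygous than in wild-type mice across tissues, are Mnd1, Gsto2, Exd1, Mettl25, P2rx1, Hic1, Proca1, L3mbtl3, Cr1l and Serpinb9. They are 10 of the 48709 genes in the count tables. They were chosen by their measured values: a fit of all 30 libraries gave each a genotype effect shared by the tissues, with an adjusted p under 0.05. Their genotype differences are therefore a description of how they were chosen, and no test of them is offered as support. The values of the genes that flank them and of the genes they work with were not used in the choice. The wild-type libraries entered the fit, so wild-type levels are not independent of the choice. Differences between tissues were a term of the fit and not the effect by which genes were chosen.

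RNA was sequenced from brain, kidney, liver, quadriceps muscle (called muscle below) and spleen of adult mice. Wild-type (WT) mice were C57BL/6, and the heterozygous mice, of the same labelled strain, were Ctcf+/-, with 3 libraries per genotype and tissue. The labels give neither the construction of the Ctcf allele nor the age in weeks. The study used 3 mice per genotype, so the 15 libraries of a genotype are not 15 independent animals, and the labels do not say which libraries share a mouse.

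The Ctcf protein reads a long DNA motif with its zinc fingers, stops the loop-extruding cohesin complex and marks boundaries between chromatin domains. Loss of both copies is lethal early in mouse development, whereas mice with a single working copy live to adulthood. Several of the 10 genes are best known from germ cells, and others act in blood, immune or mesenchymal cells.

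The RefSeq start of each gene was matched in GRCm38.p6 for 10 of 10 genes, as a window from 250 bases before to 50 bases after it. The windows of Mnd1, Exd1 and Gsto2 are printed because these genes had the largest shared differences. Each reads 5′ to 3′ on the strand of the gene, and capitals mark the GC box GGGCGG or its reverse complement, a site known to be bound by Sp-family factors.

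Mnd1 (GRCm38.p6, chr3:84155737-84156036, minus strand): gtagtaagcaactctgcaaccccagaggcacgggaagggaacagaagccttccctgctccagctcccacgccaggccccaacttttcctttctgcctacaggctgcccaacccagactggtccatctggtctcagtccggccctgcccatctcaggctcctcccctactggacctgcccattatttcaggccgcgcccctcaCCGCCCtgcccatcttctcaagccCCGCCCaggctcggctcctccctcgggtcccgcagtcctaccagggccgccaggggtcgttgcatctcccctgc
Exd1 (GRCm38.p6, chr2:119547578-119547877, minus strand): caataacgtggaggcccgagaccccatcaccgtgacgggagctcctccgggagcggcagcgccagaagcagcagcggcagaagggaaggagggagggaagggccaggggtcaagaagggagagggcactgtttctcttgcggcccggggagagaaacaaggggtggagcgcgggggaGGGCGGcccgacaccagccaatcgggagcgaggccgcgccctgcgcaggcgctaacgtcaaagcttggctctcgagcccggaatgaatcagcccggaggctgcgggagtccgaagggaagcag
Gsto2 (GRCm38.p6, chr19:47865295-47865594, plus strand): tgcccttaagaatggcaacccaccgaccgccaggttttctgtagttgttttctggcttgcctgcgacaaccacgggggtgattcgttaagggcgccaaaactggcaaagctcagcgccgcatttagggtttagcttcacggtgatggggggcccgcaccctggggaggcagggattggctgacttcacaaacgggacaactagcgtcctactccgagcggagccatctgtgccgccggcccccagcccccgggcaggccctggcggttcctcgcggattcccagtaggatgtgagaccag

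The Mnd1 window held 2 GC boxes and the Exd1 window 1, while that of Gsto2 held none. On either strand a GC box was found in 5 of the 10 windows (Mnd1, Exd1, Hic1, L3mbtl3 and Serpinb9), beside 35.66% of all 32851 windows of the same length. The core of the Ctcf motif, searched on both strands as CCA, any 2 bases, AG, any 2 bases and GGC, was found in 0 of the 10 windows and in 2.43% of all windows. The TATA box TATAAA (13.62% of all windows), the E2F site GCGGGAA (4.6%) and the E-box CACGTG (7.15%) were also in 0 of the 10. The interferon-stimulated response element, searched as GAAA, any 2 bases and GAAA, which was added to the search after the windows had been seen, was in 1, that of Serpinb9, and in 3.44% of all windows. GC content ran from 41.3% at Cr1l to 79.3% at L3mbtl3, with a median of 63.2% beside 52.667% over all windows. The ratio of observed to expected CpG dinucleotides ran from 0.07 at Proca1 to 1.02 at Mettl25. The windows of Hic1 and Serpinb9 start from RefSeq transcripts that begin 736 and 1291 bases from the gene start in the count tables.

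On GRCm38 the genes lay on 7 chromosomes, and 0 of them on chromosome 8, which carries Ctcf (105636568 to 105682922). That chromosome also carries 6 of the 47 genes called in the shared fit, Ctcf included. The share of all tested genes on it is not given here, so this count has no scale. P2rx1 (72999103 to 73015200, plus strand), Hic1 (75164565 to 75169519, minus strand) and Proca1 (78193392 to 78205763, plus strand) sat within 5.21 Mb of chromosome 11. Among the 115 tested genes of this interval these 3 alone were called, beside 0.194% of all tested genes. The interval was drawn after the choice, from the start of P2rx1 to the end of Proca1, so it holds these 3 by construction. Mettl25 (105763189 to 105841380) and L3mbtl3 (26274468 to 26375185) lay far apart on chromosome 10, both on the minus strand. Mnd1 spans 84087933 to 84155786 of chromosome 3 and Exd1 spans 119516505 to 119547627 of chromosome 2, both on the minus strand. Gsto2 occupies 47865545 to 47886324 of chromosome 19 on the plus strand. Cr1l lies at 195097382 to 195131586 of chromosome 1 on the minus strand, and Serpinb9 at 33003250 to 33017957 of chromosome 13 on the plus strand. Only Mettl25 shared exon bases with another gene: 305 of its 2688 exon bases (11.3%) overlap Ccdc59 on the opposite strand, and fragments falling there were not counted.

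Libraries held 49.8 M to 131.6 M counted fragments, with a median of 85.9 M. Where nothing was counted a gene may still be present at up to 3 counts, or 0.0228 to 0.0602 counts per 1 M counted fragments (CPM) by total counts. Levels below are CPM with the TMM scaling of edgeR over the 30 libraries, which limits the weight of a few very abundant genes. The floor in CPM was not rescaled by TMM and can differ on that scale. Ctcf was lower in every heterozygous library than in every WT library of the same tissue, at 31.6 ± 2.02 CPM against 48.6 ± 1.45 in brain and 91.0 ± 17 against 140.8 ± 19 in spleen (SD, n = 3) (the latter overlapped when scaled by total counts alone). The summed markers of each labelled tissue were at least 56.1 times higher in its own libraries than in any library of another tissue. No sequencing batch is given in the labels. In whole tissue, more cells of a type and more RNA per cell cannot be told apart.

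The shared fit, with tissue and genotype as terms, called 47 of 24262 genes (0.194%), 40 of them higher (0.165%) and 7 lower (0.0289%) in heterozygous libraries (edgeR quasi-likelihood test with Benjamini-Hochberg adjustment). All 10 genes are among the 40 by construction. The rest of the 40 met the same threshold, and the rule that picked the 10 among them is not given. The fit had no interaction term, so it gave 1 effect over the tissues and did not test whether tissues differed. Their log2 fold changes ran from 0.19 to 1.29 with a median of 0.52, beside a median of 0.01 over all genes tested. P2rx1, at an adjusted p of 0.0449, stood just inside the threshold together with Fdxacb1 and Nudt11, both also at 0.0449. Just outside were Cfap74 at 0.0514, and Tmem221 and Rarg at 0.0538.

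**Figure D1:**
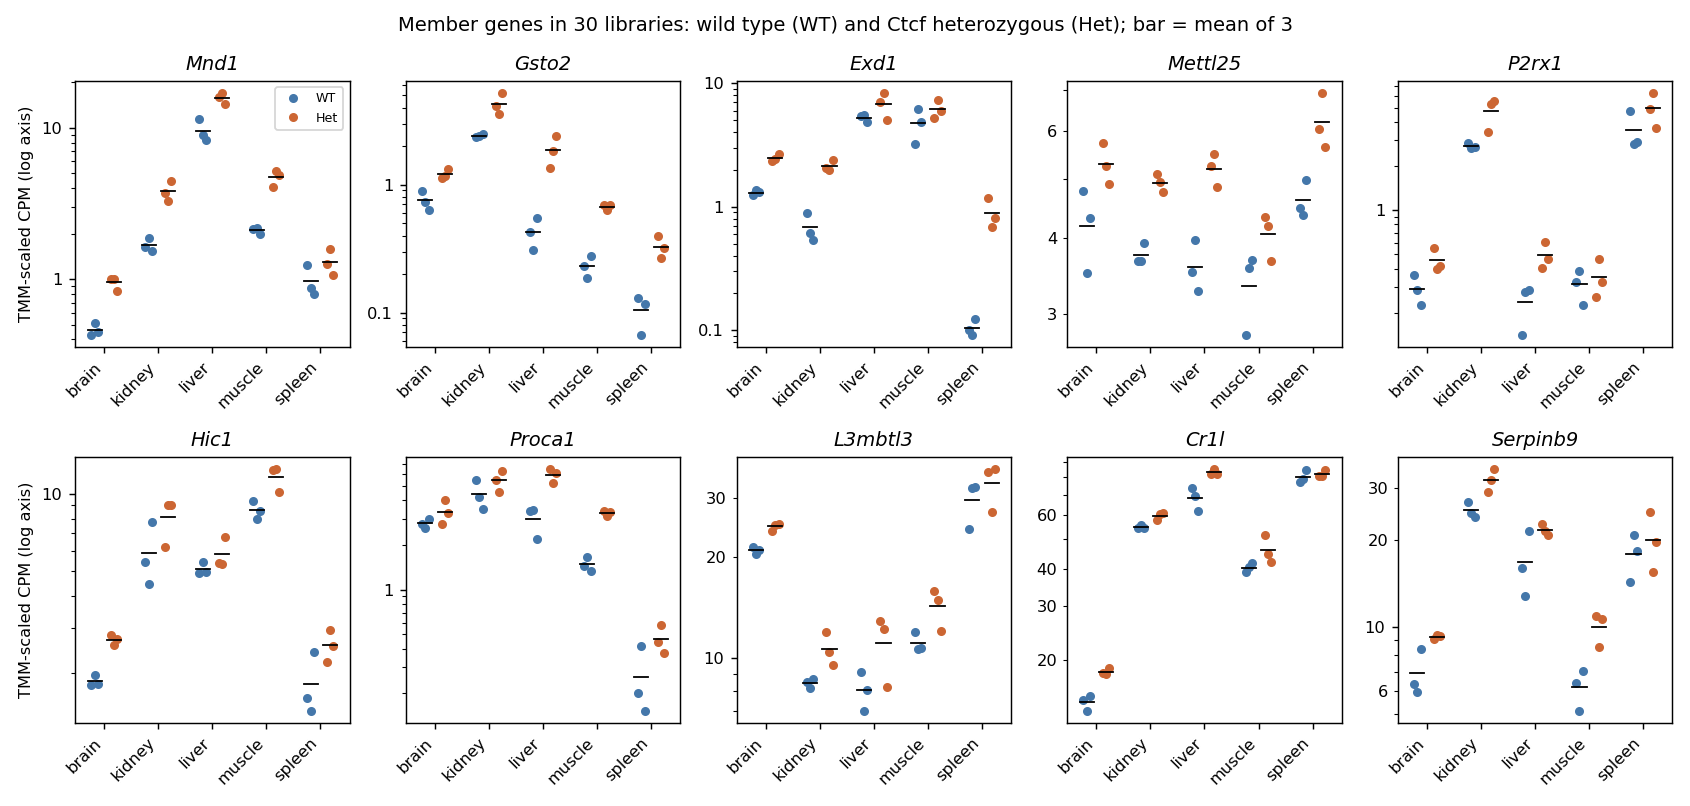
Level of each gene in each of the 30 libraries (TMM-scaled CPM, log axis that differs between panels) by tissue, with WT in blue, Ctcf heterozygous in orange and a bar at the mean of 3. Heterozygous means lay above WT means in 50 of 50 combinations of gene and tissue, and in 33 of them no heterozygous library fell to the WT range.

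Across the 50 combinations of gene and tissue, every heterozygous library exceeded every WT library in 33, and the reverse was seen in 0. Scaled by total counts alone, every heterozygous library exceeded every WT library in 31 of the 50. The shares of all tested genes below are for TMM scaling and do not apply to this count. The mean under TMM scaling was higher in 50 of 50, beside 5.4% of all tested genes whose mean was higher in each of the 5 tissues. Genes with every heterozygous library above every WT library numbered 9 in brain (8.51% of all tested genes) and 8 in kidney (5.7%). Liver had 6 (4.65%), muscle 7 (5.47%) and spleen 3 (4.34%). Counting tissues for each gene, Gsto2 was separated in 5 tissues, Mnd1, Mettl25 and Cr1l in 4, Exd1, P2rx1, L3mbtl3 and Serpinb9 in 3, and Hic1 and Proca1 in 2. Separation in at least 3 tissues was found for 134 genes (0.552%), in at least 4 for 29 (0.12%) and in 5 for 6 (0.0247%). The other 5 genes separated in every tissue were Zcwpw1, Ccnb2-ps, Gm38250, Carmil2 and Phf11d. The choice of the 10 genes used these same libraries, so these shares are printed only to set the scale.

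Mnd1 works with Psmc3ip (Hop2) to help the recombinase Dmc1 pair homologous DNA in meiosis. In WT mice it was most abundant in liver and least in brain. Its level in brain was 0.428, 0.511 and 0.450 CPM in WT libraries and 1.01, 1.01 and 0.838 CPM in heterozygous libraries. In kidney it was 1.63, 1.86 and 1.54 CPM against 3.73, 3.31 and 4.49 CPM. In muscle it was 2.15, 2.17 and 2.0 CPM against 4.05, 5.20 and 4.89 CPM. In these 3 tissues the lowest heterozygous library stood well above the highest WT library, with mean ratios of 2.05, 2.30 and 2.24. In liver the WT libraries were at 11.5, 8.95 and 8.27 CPM and the heterozygous libraries at 16, 17 and 14.3 CPM, again without overlap. In spleen they were at 1.23, 0.870 and 0.796 CPM against 1.26, 1.59 and 1.06 CPM, and the groups overlapped, though not by total counts alone. Over all tissues the fitted log2 difference was 0.91 (SE 0.10, edgeR adjusted p 4.70e-06), and the fits of single tissues ran from 0.44 in spleen to 1.19 in kidney.

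Exd1 encodes an RNA-binding partner of Tdrd12 in the making of piRNAs, the small RNAs that silence transposons in germ cells. Its shift was the most uneven of the 10. In spleen, where WT mice had least of it, the WT libraries held 10, 11 and 17 fragments, or 0.10, 0.0920 and 0.124 CPM, and the heterozygous libraries 169, 72 and 111 fragments, or 1.18, 0.689 and 0.805 CPM. The heterozygous mean was thus 8.45 times the WT mean, and the lowest heterozygous library stood far above the highest WT library. In kidney the values were 0.892, 0.617 and 0.544 CPM in WT against 2.05, 1.99 and 2.39 CPM, a ratio of 3.14. In brain they were 1.24, 1.36 and 1.31 CPM against 2.36, 2.45 and 2.69 CPM, a ratio of 1.92, again with a wide gap. Liver and muscle had the highest WT levels and overlapping groups. Liver stood at 5.38, 5.57 and 4.86 CPM in WT against 7.01, 8.30 and 5.07 CPM, and muscle at 3.23, 6.23 and 4.83 CPM against 5.20, 7.28 and 5.91 CPM, with a ratio of 1.29 in each.

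The single-tissue log2 fold changes of Exd1 accordingly ran from 0.34 in muscle (SE 0.26) and 0.35 in liver (SE 0.21) to 3.08 in spleen (SE 0.35). Whether the genotype effect differed between tissues was tested by the interaction terms, which passed for 184 of 24262 genes (0.758%) by edgeR's quasi-likelihood test. Among the 10 genes only Exd1 passed, with an adjusted p of 0.000997. The 10 genes were chosen in these libraries for an effect shared by the tissues, which favours little difference between tissues. That a gene did not pass this test, here or below, is therefore not read as a result. The heterozygous spleen libraries also held more kidney marker RNA, with 4 markers summing to 7.26 to 15.1 CPM against 0.0586 to 0.261 CPM in WT. WT spleen libraries in turn held more liver marker RNA, at 20.6 to 26.0 CPM against 0.0140 to 0.0957 CPM. The part of RNA from these tissues in the Exd1 values of spleen was not tested.

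**Figure D2:**
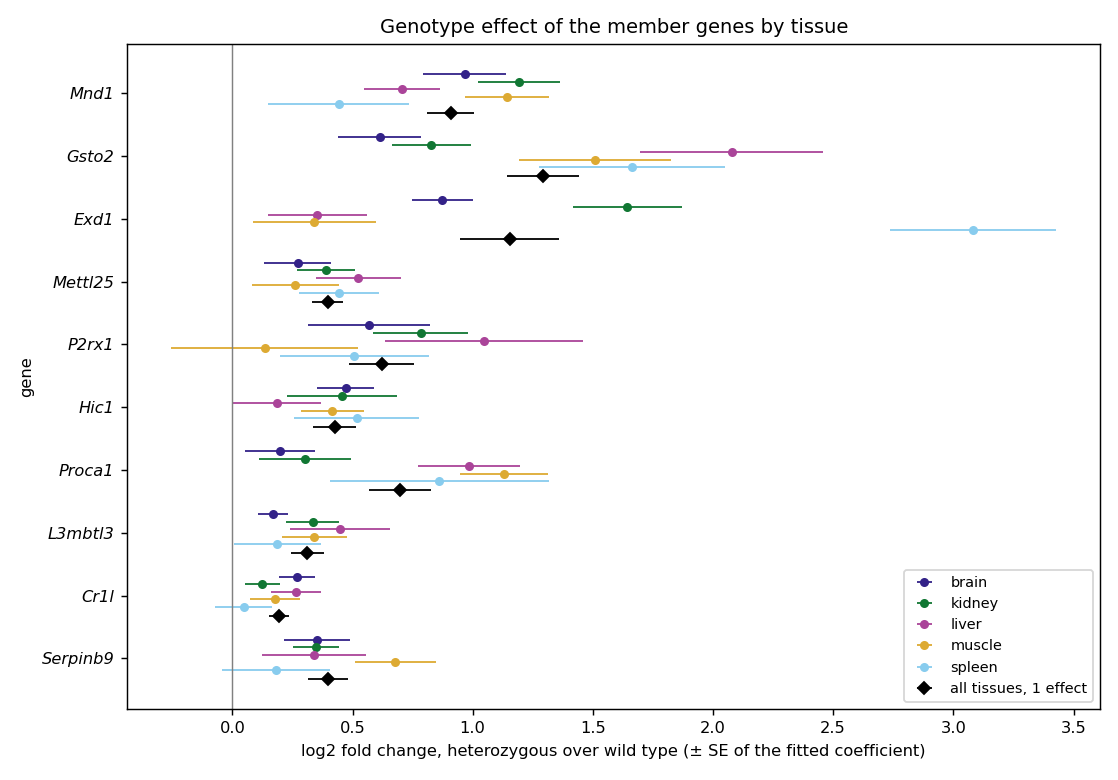
Log2 fold change of each gene, heterozygous over WT, with its standard error, fitted in each tissue alone (coloured points) and as 1 effect over all tissues (black diamonds). Exd1 spreads from 0.34 in muscle to 3.08 in spleen, whereas the Mettl25 values lie between 0.26 and 0.52.

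Proca1 encodes a protein reported to bind cyclin A1. Its groups were separate in muscle and liver and overlapped in the other tissues. Muscle libraries were at 1.45, 1.65 and 1.34 CPM in WT and at 3.38, 3.14 and 3.32 CPM in heterozygous mice. Liver libraries were at 3.35, 3.41 and 2.19 CPM against 6.49, 5.18 and 6.12 CPM. In both tissues the groups were far apart, with ratios of 2.22 and 1.98. In brain (2.76, 2.59 and 3.0 CPM against 2.76, 3.97 and 3.29 CPM) and in kidney (5.48, 4.20 and 3.49 CPM against 5.49, 4.54 and 6.25 CPM) the heterozygous libraries reached down into the WT range, and spleen held 0.466 ± 0.0999 CPM against 0.257 ± 0.141 CPM in WT. Over all tissues the fitted log2 difference was 0.70 (SE 0.13, edgeR adjusted p 0.0127), and the interaction of genotype with tissue had an adjusted p of 0.857.

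These 3 genes are known from germ cells. The 6 markers Ddx4, Dazl, Sycp3, Tnp1, Prm1 and Acrv1 gave summed levels whose groups overlapped in all 5 tissues, for example 4.0 to 5.11 CPM in WT and 4.05 to 5.47 CPM in heterozygous brain. Tnp1, which packs sperm DNA, was at 0 in every library. Xist was at 5424 counts or more in every library, and none of the Y-linked Ddx3y, Kdm5d, Eif2s3y and Uty rose above 8, as in female mice. Females form no sperm, so the lack of Tnp1 cannot tell whether other germ cell RNA was present. The part of germ cell RNA in the result was not tested.

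Gsto2 encodes an omega-class glutathione transferase that reduces dehydroascorbate back to vitamin C. It was the only one of the 10 genes separated in every tissue under TMM scaling (by total counts alone Mnd1 was too). Kidney, its richest WT tissue, went from 2.35, 2.39 and 2.47 CPM to 4.11, 3.55 and 5.18 CPM. Brain went from 0.889, 0.737 and 0.633 CPM to 1.13, 1.17 and 1.33 CPM. Here the ratios were 1.78 and 1.61. The ratio was 4.34 in liver, where WT libraries were at 0.425, 0.308 and 0.548 CPM and heterozygous libraries at 1.35, 1.82 and 2.40 CPM. Muscle stood at 0.233, 0.185 and 0.278 CPM against 0.689, 0.636 and 0.689 CPM. Spleen, with 8 to 16 fragments in each WT library, stood at 0.130, 0.0669 and 0.117 CPM against 0.398, 0.268 and 0.319 CPM. Over all tissues the fitted log2 difference was 1.29 (SE 0.15, edgeR adjusted p 1.56e-05), and the interaction test gave an adjusted p of 0.19983, so the ratios were not shown to differ between tissues.

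Mettl25 belongs to the methyltransferase-like proteins, and it had the flattest tissue pattern of the 10. WT means ran only from 3.34 ± 0.497 CPM in muscle to 4.61 ± 0.328 CPM in spleen. Kidney libraries were at 3.67, 3.66 and 3.93 CPM in WT and at 5.09, 4.94 and 4.76 CPM in heterozygous mice. Liver libraries were at 3.52, 3.97 and 3.27 CPM against 5.26, 5.49 and 4.85 CPM. Spleen libraries were at 4.49, 4.37 and 4.98 CPM against 6.05, 6.93 and 5.64 CPM. The groups were separate in these 3 tissues and, under TMM scaling only, in brain (4.77, 3.50 and 4.31 CPM against 5.74, 5.26 and 4.91 CPM), while in muscle they overlapped. Ratios ran from 1.22 to 1.45, and the fitted log2 difference over all tissues was 0.40 (SE 0.06, edgeR adjusted p 0.00180).

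Hic1 and L3mbtl3 act on chromatin. Hic1 is a zinc-finger repressor that is prominent in mesenchymal progenitors, and L3mbtl3 carries MBT domains that read methylated lysine. Hic1 was separated in brain, at 1.79, 1.95 and 1.82 CPM in WT against 2.82, 2.57 and 2.70 CPM, and in muscle, at 9.33, 7.96 and 8.6 CPM against 12.3, 12.5 and 10.1 CPM. Its groups overlapped in kidney, liver and spleen, where the ratios were 1.37, 1.15 and 1.41. The summed level of 5 mesenchymal markers (Pdgfra, Dcn, Lum, Col1a1 and Ly6a) overlapped between genotypes in brain and muscle, at 81.8 to 92.9 CPM in WT against 83.5 to 107.5 CPM in brain and 362.6 to 567.9 CPM against 431.1 to 829.3 CPM in muscle. In spleen it was higher in heterozygous libraries, at 134.2 to 167.5 CPM against 93.5 to 133.0 CPM. Ly6a had the highest count of the 5 in any library, at 62054, followed by Dcn at 20990, so it can weigh heavily in the sum. The collagen gene Col1a1, among these 5, was itself called in the shared fit, at 0.72 (SE 0.14) and an adjusted p of 0.0272. The part of mesenchymal cells in the Hic1 result was not tested.

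L3mbtl3 differed little in size but with small spread in brain, where WT libraries were at 21.5, 20.4 and 21 CPM and heterozygous libraries at 23.9, 25 and 25.2 CPM. Kidney libraries were at 8.51, 8.14 and 8.69 CPM against 12, 10.5 and 9.58 CPM. The groups were separate in both, and in muscle (12, 10.7 and 10.7 CPM against 15.9, 14.9 and 12.1 CPM) under TMM scaling only. In liver 1 heterozygous library, at 8.21 CPM, lay inside the WT range, and in spleen another, at 27.3 CPM. The shared log2 fold changes were 0.43 for Hic1 (SE 0.09, edgeR adjusted p 0.0327) and 0.31 for L3mbtl3 (SE 0.07, edgeR adjusted p 0.0429).

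P2rx1, Cr1l and Serpinb9 act at the surface or in the cytosol of blood, immune and many other cells. P2rx1 is an ATP-gated cation channel of platelets and smooth muscle. In kidney its WT libraries were at 2.88, 2.64 and 2.70 CPM and its heterozygous libraries at 3.40, 5.26 and 5.52 CPM. In brain (0.360, 0.285 and 0.225 CPM against 0.553, 0.401 and 0.419 CPM) and liver (0.142, 0.280 and 0.286 CPM against 0.406, 0.613 and 0.468 CPM) the groups were also separate, although a liver WT library here held as few as 6 fragments. In spleen 2 heterozygous libraries exceeded every WT library and the third, at 3.66 CPM, did not. In muscle the groups were mixed, at 0.326, 0.386 and 0.226 CPM against 0.256, 0.468 and 0.327 CPM. The 6 platelet markers (Pf4, Ppbp, Itga2b, Gp9, Gp1ba and Gp6) summed to levels that overlapped between genotypes in all 5 tissues. The sums were 12.8 to 14.5 CPM in WT kidney and 12.1 to 17.9 CPM in heterozygous kidney. Taken singly in the shared fit, the log2 fold changes were 0.63 for Pf4 (SE 0.23) and 0.63 for Gp6 (SE 0.37). Gp9 was at 0.17, Itga2b at 0.08, Ppbp at 0.05 and Gp1ba at -0.09, and none of these markers was called. The 5 smooth muscle markers (Acta2, Myh11, Tagln, Cnn1 and Des) overlapped in brain, kidney, liver and spleen. Des is also abundant in skeletal muscle fibres, so the sum is not read as smooth muscle in that tissue. The part of platelets and of smooth muscle cells in the P2rx1 result was not tested.

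Cr1l (Crry) shields rodent cells from complement, and per kilobase of exon it was the most abundant of the 10 genes in WT muscle and spleen. Brain libraries were at 14.7, 13.6 and 15.2 CPM in WT and at 18.1, 18 and 18.8 CPM in heterozygous mice. Liver libraries were at 74.0, 69.6 and 61.9 CPM against 81.8, 85.3 and 81.8 CPM. Kidney libraries, at 54.3, 55.5 and 54.3 CPM against 57.8, 60.4 and 61.2 CPM, were separate as well despite a ratio of 1.09. In muscle the lowest heterozygous library, at 42.0 CPM, just cleared the highest WT library, at 41.6 CPM, and no longer did so by total counts. In spleen, its richest WT tissue, the levels were 80.2 ± 3.84 CPM in WT and 81.9 ± 2.21 CPM in heterozygous libraries, a difference smaller than either SD.

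Serpinb9 encodes an inhibitor of granzyme B that protects cells from their own or a neighbour's cytotoxic granules. Muscle libraries were at 6.37, 5.14 and 7.03 CPM in WT and at 10.9, 8.53 and 10.6 CPM in heterozygous mice. Brain libraries were at 6.37, 5.95 and 8.40 CPM against 9.11, 9.33 and 9.26 CPM, and kidney libraries at 27.0, 24.8 and 23.9 CPM against 29.2, 32.2 and 35.1 CPM. In these 3 tissues the groups were separate, and in liver and spleen they overlapped. The summed leukocyte markers Ptprc, Cd52, Coro1a and Laptm5 were also higher in heterozygous kidney, at 52.8 to 59.7 CPM against 46.8 to 52.7 CPM, and in heterozygous muscle, at 15 to 15.7 CPM against 7.57 to 14.2 CPM. In brain they overlapped. The 7 markers of cytotoxic lymphocytes overlapped in every tissue, with 0.243 to 0.762 CPM in WT muscle and 0.299 to 0.689 CPM in heterozygous muscle. The part of leukocytes in the Serpinb9 result was not tested. The shared log2 fold changes of P2rx1, Cr1l and Serpinb9 were 0.62 (SE 0.14), 0.19 (SE 0.04) and 0.40 (SE 0.08), with edgeR adjusted p of 0.0449, 0.0414 and 0.0331.

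Taken in each tissue alone, these shifts seldom passed a test over all genes. Of 50 tests without a replicate block, 1 passed by edgeR's quasi-likelihood test, that of Exd1 in spleen at an adjusted p of 0.0340. The spleen fit called 45 of 18615 genes (0.242%), brain 3 (0.0157%), kidney 4 (0.0211%), liver 3 (0.0193%) and muscle 4 (0.0249%). With the 6 spleen libraries reduced to 5, the call of Exd1 was lost when any of the 3 WT libraries (adjusted p 0.151, 0.294 and 0.182 without replicate 1, 2 and 3) or heterozygous replicate 1 (0.112) or 3 (0.147) was left out, and kept without heterozygous replicate 2 (0.0495). With the replicate number as a block it had an adjusted p of 0.280, and the blocked fits instead called Exd1 in brain (adjusted p 0.0168, with 0.115% of genes called), Mnd1 in muscle (0.0313) and Proca1 in muscle (0.0496, with 0.735% called). DESeq2 called 12 of the 50, among them Mnd1 in kidney (adjusted p 1.02e-07), Exd1 in kidney (2.64e-08) and Exd1 in spleen (5.91e-10), beside shares of all genes called of 1% in spleen, 0.99% in muscle, 0.924% in kidney, 0.462% in liver and 0.146% in brain.

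The mouse is the unit that these counts of libraries do not respect. Under the assumption, absent from the labels, that libraries of the same genotype and number come from 1 mouse, the mean log2 level over the 5 tissues was higher in all 3 heterozygous mice than in all 3 WT mice for 10 of 10 genes and for 6.25% of all genes tested. For Exd1 the 3 WT means were 0.46, 0.57 and 0.46 and the 3 heterozygous means 1.60, 1.61 and 1.52 on the scale of log2(CPM + 0.1), so each heterozygous mean lay far above the WT range. For Cr1l the means were 5.49, 5.47 and 5.49 against 5.68, 5.67 and 5.67, closer in value though still without overlap. A limma fit of 1 mean per mouse, computed separately from log2 CPM centred within each tissue, called 2 genes, Carmil2 and Exd1. It gave Exd1 a log2 difference of 1.22 (SE 0.08) with an adjusted p of 0.0262, and Cr1l an unadjusted p of 0.0336 and an adjusted p of 0.729. The same libraries chose the 10 genes for a shared difference, so higher heterozygous means follow largely from the choice. Neither the separation of the means nor these p-values are offered as support.

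The normal tissue pattern was taken from the 15 WT libraries, which leaves genotype out. These libraries also entered the fit that chose the genes. A difference between tissues passed for 22473 of 22933 genes (98%) by edgeR's quasi-likelihood test, and for 9 of the 10 genes. Mettl25 was the exception, with an adjusted p of 0.255 and a highest mean only 1.38 times its lowest. Exd1 had the widest range of the 10, at 49.97 times between liver and spleen, followed by Gsto2 at 22.9 times, Mnd1 at 20.7 times, Proca1 at 17.1 times and P2rx1 at 14.8 times. Cr1l (5.53 times), Hic1 (4.76), Serpinb9 (4.08) and L3mbtl3 (3.67) varied less.

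**Figure D3:**
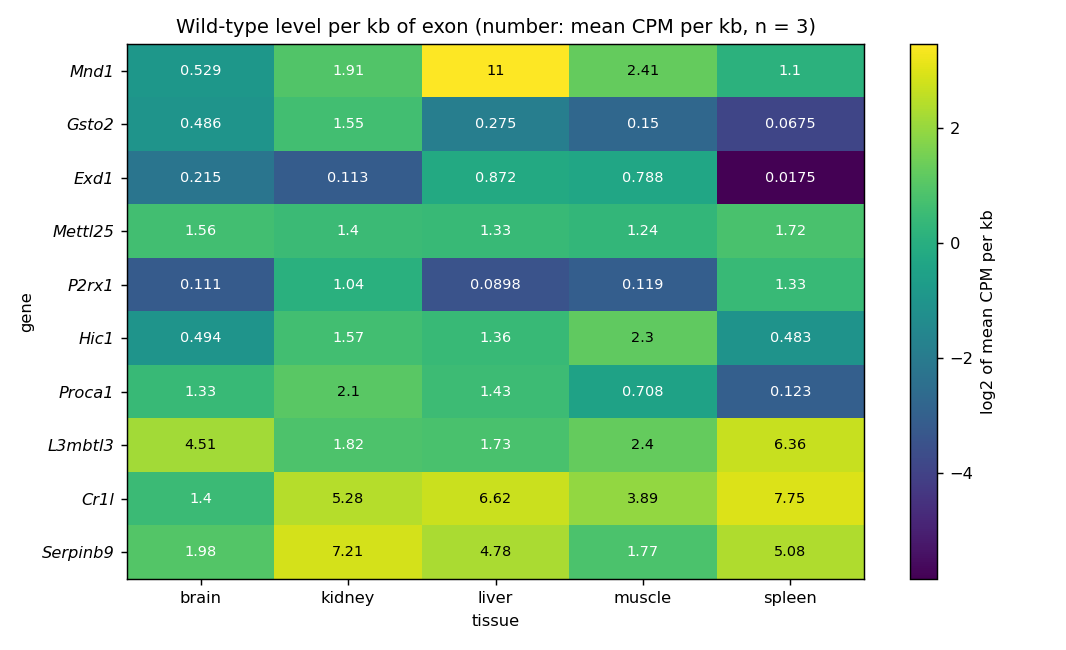
Mean level of each gene per kilobase of exon in the 3 WT libraries of each tissue, as a number (CPM per kb) and as colour on a log2 scale. Mnd1 peaks in liver at 11 CPM per kb, and Exd1 in spleen is the lowest entry at 0.0175 CPM per kb.

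No tissue ranked highest for most of the genes. Mnd1 was highest in liver (9.58 ± 1.71 CPM), well above muscle (2.11 ± 0.0953 CPM; adjusted p 1.08e-06 for this pair), while muscle and kidney were not told apart (adjusted p 0.0695). Exd1 was highest in liver (5.27 ± 0.366 CPM) and muscle (4.76 ± 1.5 CPM), which were not told apart, then brain, kidney and spleen, each step of which passed. Gsto2 fell from kidney through brain to liver in steps that passed, liver and muscle were not told apart (adjusted p 0.0671), and spleen was lowest. Proca1 was at 4.39 ± 1.01 CPM in kidney, 2.99 ± 0.688 in liver and 2.78 ± 0.204 in brain, no neighbours of which differed beyond their spread, and it was lower in muscle and lowest in spleen. All pair tests here are edgeR contrasts adjusted over the genes tested in WT. Such differences are the rule: of all genes tested, brain differed from kidney in 71.4%, from liver in 73.2%, from muscle in 72.3% and from spleen in 79.8%. Kidney differed from liver in 54.1%, from muscle in 64.4% and from spleen in 75.5%. Liver differed from muscle in 64.2% and from spleen in 72.9%, and muscle from spleen in 75.2%.

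P2rx1 formed a high pair, spleen (3.50 ± 1.10 CPM) and kidney (2.74 ± 0.126 CPM), and a low group of muscle, brain and liver, with a step that passed only between the groups. Hic1 led in muscle (8.63 ± 0.685 CPM), followed by kidney and liver, which were not told apart, and by brain and spleen, which were not either. L3mbtl3 was highest in spleen (29.6 ± 4.61 CPM) and fell through brain and muscle to kidney and liver, the last of which were not told apart. Cr1l was similar in spleen and liver (adjusted p 0.0611), lower in kidney and muscle, and lowest in brain (14.5 ± 0.811 CPM). Serpinb9 was highest in kidney (25.2 ± 1.58 CPM), then spleen and liver, and lowest in brain and muscle, with neither of these pairs told apart. Over the 10 genes, 22 steps between neighbouring tissues passed.

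The order of tissues in heterozygous mice began with the same tissue as in WT mice for 8 of the 10 genes. The exceptions were Proca1, where liver (5.93 ± 0.677 CPM) came above kidney (5.43 ± 0.856 CPM), and Cr1l, where liver (83.0 ± 2.02 CPM) came above spleen (81.9 ± 2.21 CPM). Both of these reversals at the top of the order joined tissues whose WT levels had not been told apart. Lower in the order, Gsto2 in liver (1.85 CPM) came above brain (1.21 CPM) in heterozygous mice, although brain had been above liver in WT mice with an adjusted p of 0.0189 by edgeR.

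Per kilobase of exon in WT libraries, the level of Mnd1 in liver (11 CPM per kb) exceeded that of Cr1l (6.62) and Serpinb9 (4.78) there. Mnd1 has 875 exon bases and Cr1l 10349. Exd1, with 6042 exon bases, never rose above 0.872 CPM per kb in WT tissue. In spleen L3mbtl3 (6.36 CPM per kb) and Cr1l (7.75) were the leading genes of the 10, and Exd1 (0.0175) and Gsto2 (0.0675) the lowest.

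For each gene the named genes with the most similar log2 level over the 15 WT libraries were listed. The points share tissues and libraries, and the correlations are given as a description. Pearson r was 0.983 between Mnd1 and both Dpagt1 and Cyp27a1, the latter a sterol hydroxylase of bile acid synthesis. Exd1 was nearest to Aox1 (0.989), an aldehyde oxidase, and Fxyd1 (0.986), a regulator of the sodium pump. Gsto2 was nearest to Enpp6 (0.983) and Ccdc160 (0.982), Proca1 to Aplp2 (0.990) and Cttn (0.985), and P2rx1 to Krtcap3 (0.980) and Mcoln3 (0.977). Hic1 was nearest to Fh1 (0.970) and Fitm1 (0.968), L3mbtl3 to Ripor2 (0.985) and Gripap1 (0.983), Cr1l to Rpf1 (0.985) and Shc1 (0.985), and Serpinb9 to Wdr20 (0.951) and Mtfmt (0.949). Mettl25, with its flat pattern, had the weakest matches, Rab10os (0.823) and Kansl1 (0.815).

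Of the nearest tested genes on both sides of the 10, 20 in all, 0 were called in the shared fit by edgeR (0.194% of all genes) and 0 by DESeq2. By edgeR 1 had an unadjusted p under 0.05, Rab34 beside Proca1 (log2 fold change 0.28, unadjusted p 0.0395), beside 1433 of all 24262 genes. The log2 fold changes of the 20 ran from -0.38 to 0.36 with a median of 0.04. Separation in 3 or more tissues was seen for 0 of the 20, beside 0.552% of all genes. At these shares 20 genes are too few to tell flanking genes from other genes. Gsto2 lies inside Cfap43, a ciliary gene on the opposite strand with which it shares no exon bases, and Cfap43 was at -0.22 (SE 0.11, adjusted p 0.866). The start of Exd1 is 70 bases from that of Chp1, a calcineurin-like protein gene transcribed the other way, which was at -0.02 (SE 0.06). The starts of Mettl25 and Ccdc59 overlap by 313 bases, and Ccdc59 was at 0.01 (SE 0.05). Cr1l sits between 2 other complement regulators: Cd46 was at 0.33 (SE 0.16, adjusted p 0.852) and Cr2, a receptor of B cells, at -0.38 (SE 0.19, adjusted p 0.877). Beside Serpinb9, its paralogues Serpinb6b and Serpinb9b were at 0.04 (SE 0.11) and -0.28 (SE 0.30).

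**Figure D4:**
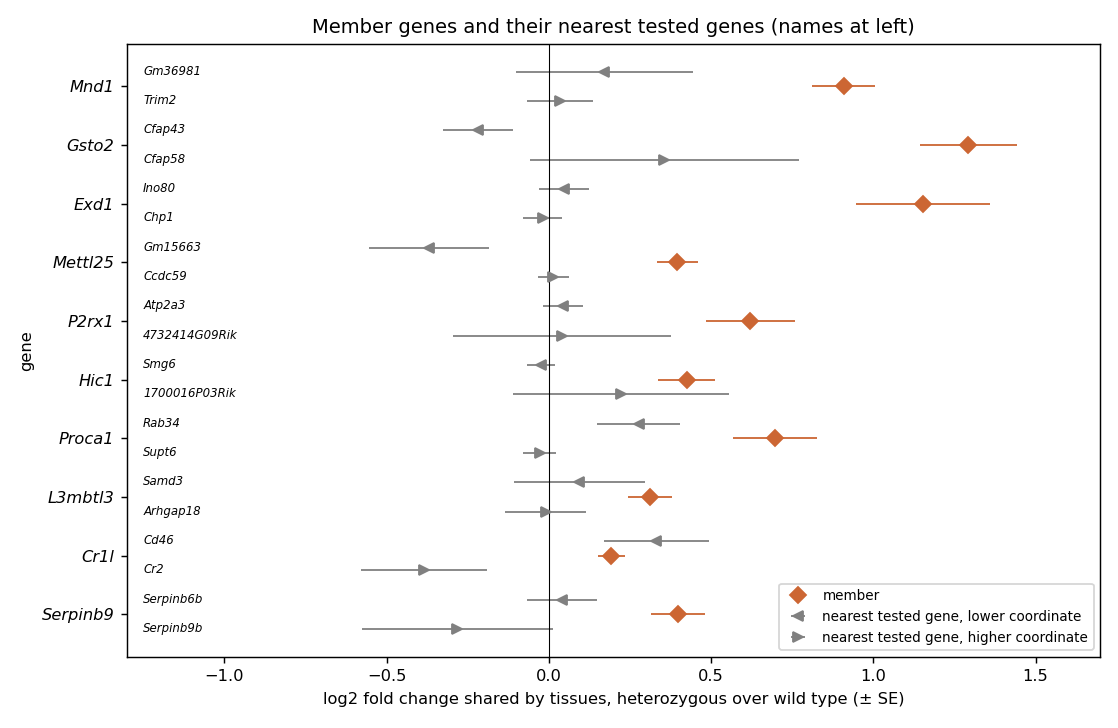
Shared log2 fold change (± SE) of each of the 10 genes (orange) and of the nearest tested gene on either side (grey triangles, named at left). The 20 flanking genes lie between -0.38 and 0.36, and the 10 genes between 0.19 and 1.29. The 10 genes were chosen by this same fit, so their higher values follow from the choice.

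The partners and paralogues of the 10 genes were collected in 10 lists with 127 genes, of which 116 passed the filter on low counts. In the shared fit 0 of them were called higher and 0 lower by edgeR, beside 0.165% and 0.0289% of all genes. An unadjusted p under 0.05 was found for 8, beside 1433 of all 24262 genes. The median log2 fold change of the list genes was 0.02, against 0.01 over all genes. Separation in 3 or more tissues was seen for 0 of them, beside 0.552% of all genes. At these shares of called and separated genes, 116 genes are too few to tell partners and paralogues from other genes. The lists were drawn up with earlier results of these data known.

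For meiotic recombination, 21 of 24 genes were tested, with a median of 0.07. Psmc3ip, the direct partner of Mnd1, was at -0.04 (SE 0.11), and Rec8, the meiotic cohesin subunit, had the smallest p of the list (log2 fold change -0.37, unadjusted p 0.0499, adjusted p 0.846). For the piRNA pathway 15 of 18 were tested, 13 of them with a positive value, beside 13354 of all 24262 genes. The median was 0.22, the highest of the 10 lists. There 5 genes had an unadjusted p under 0.05, beside 1433 of all 24262: Tdrkh (0.23), Tdrd12 (0.32), Tdrd7 (0.14), Pld6 (0.33) and Mael (0.92, at a mean of only 0.0197 CPM in WT). None passed after adjustment, and the smallest adjusted p was 0.254, for Tdrkh, a Tudor-domain protein that helps trim piRNAs.

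The omega-class and glutathione-ascorbate list (12 tested) had a median of -0.05, and Gsto1, the paralogue of Gsto2, was at -0.09 (SE 0.09). The Mettl family (21 tested) had a median of -0.02. Among P2X receptors (6 tested, median 0.16), P2rx4 was at 0.15 (SE 0.06, unadjusted p 0.0185, adjusted p 0.625). Hic2, the paralogue of Hic1, was at 0.11 (SE 0.09), in a list of 6 with a median of 0.02. The 4 cyclin A genes and partners had a median of 0.16, with Ccna1 at 0.14 (SE 0.45).

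For the MBT-domain proteins and partners (12 tested) the median was 0.00, with L3mbtl1 at -0.01 (SE 0.25). Samd1, a CpG-island protein that binds L3mbtl3, was at -0.32 (SE 0.10, adjusted p 0.251), and DESeq2 called it lower (-0.34, adjusted p 0.0398), the only list gene called by that tool. Complement regulators (10 tested) had a median of -0.05, with Cd55 at -0.05 (SE 0.09). Of the Serpinb clade and granule list 9 of 14 genes were tested, with a median of 0.04.

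**Figure D5:**
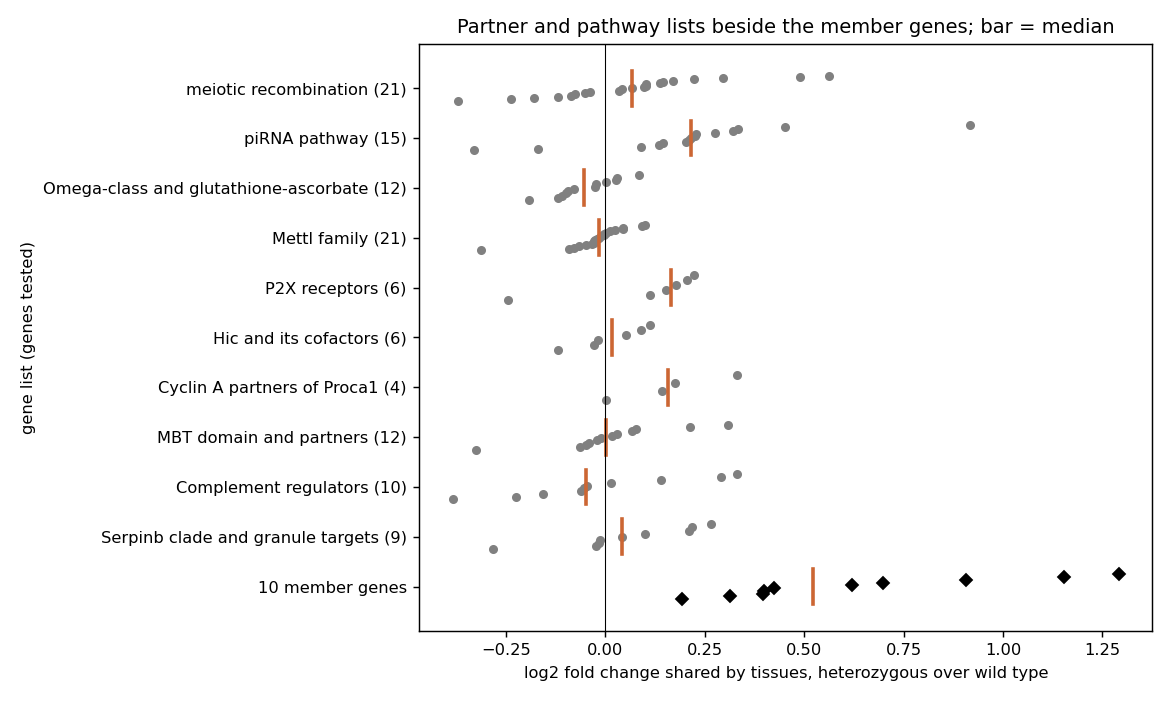
Shared log2 fold change of every tested gene in the 10 lists of partners and paralogues (grey points, bar at the median) and of the 10 genes themselves (black diamonds). The medians of the lists lie between -0.05 and 0.22, beside 0.52 for the 10 genes. The 10 genes were chosen by this same fit, so their higher median follows from the choice.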

How the data were processed

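The deposited values are whole-number counts of fragments per gene, in 5 tables of 6 libraries each. The authors made the counts with featureCounts 1.5.0-p3 on Ensembl release 86 of GRCm38, ignoring strand and dropping any fragment with more than 1 alignment or more than 1 gene, per the file headers. The submitters' processing notes also name STAR, FastQC and DESeq2. Read length and trimming are not given in the sources used here. Symbols were matched for 48349 of 48709 genes, and 12183 genes were at 0 in all libraries.

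Counts were fitted with R 4.3.3 and edgeR 4.0.16 (filterByExpr, TMM, quasi-likelihood F-test, Benjamini-Hochberg adjustment over all genes tested, called under 0.05), after a check on simulated data. The shared fit had tissue and genotype as terms. Each tissue was also fitted alone, genotype by tissue was tested as an interaction, and WT libraries alone gave the tissue pattern. The standard error is the log2 fold change divided by the square root of F. Floors cover counting error only. Alternatives were DESeq2 1.42.0, limma 3.58.1 (voom, and 1 mean per mouse), total-count scaling, filters of at least 1 count and of at least 10 counts in every library, and a replicate block. Each library and each tissue was also left out in turn. Total-count scaling of the levels and the description by mouse mean were chosen after seeing the data.

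The 10 genes, the lists and the tests were chosen with earlier results of these data known. The text names the 10 genes, Ctcf, the nearest tested genes, the first-listed partner of each list with any called list gene, and up to 2 genes of most similar WT pattern with a mean of at least 1 CPM. List genes with an unadjusted p under 0.05, genes near the threshold, genes separated in every tissue and Samd1 were named after their values were seen. P-values measure the spread between libraries. Libraries of both genotypes carry the numbers 1 to 3. Deviations from group means of same-numbered libraries correlated at 0.119, 0.259 and 0.401 in brain and at 0.164, 0.169 and 0.245 in kidney, all above 0.1, so the numbers were taken to pair libraries there. The main fits of brain and kidney had no block and so left this pairing out. The blocked fits, which take it in, called 22 genes in brain and 21 in kidney. In the other tissues at least 1 pair was below 0.1.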

Additional observations from a re-analysis of the deposited data

Results flagged for a closer look

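For Exd1 the interaction of genotype with tissue passed, with an adjusted p of 0.000997 by edgeR's quasi-likelihood test over all 30 libraries. These are the libraries by which the gene was chosen, and libraries of several tissues may come from 1 mouse, which the test treats as independent. It was called under each of the 4 alternatives run, with adjusted p from 6.05e-11 (DESeq2) to 0.00184 (total counts). No fit with a replicate block, a library left out or 1 mean per mouse was run for it. The single-tissue log2 fold changes were 3.08 in spleen, 1.64 in kidney, 0.87 in brain, 0.35 in liver and 0.34 in muscle.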

How the results depend on the processing

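Under the alternatives to the shared fit no value of the 10 genes changed sign, 90 values kept the call and 88 lost it. The 47 genes called became 157 by DESeq2, 81 by limma-voom and 2 with 1 mean per mouse, and 12 to 39 when 1 replicate number of a genotype was left out in all tissues. Without a tissue the count was 23 (brain), 16 (kidney), 15 (liver), 18 (muscle) and 36 (spleen). Of the 10 genes, 6 were called with total counts, 1 with 1 mean per mouse (Exd1), 2 to 5 without a replicate, and 4, 3, 3, 4 and 8 without brain, kidney, liver, muscle and spleen. Mnd1 and Gsto2 lost the call only with 1 mean per mouse, in 18 and 17 alternatives, whereas P2rx1, L3mbtl3 and Cr1l lost it in 14 of 17, 18 and 18. Gsto2 and P2rx1 were not tested under the filter of at least 10 counts in every library. Of the flanking genes 0 were called under any alternative, and of the list genes 1, by DESeq2.

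With the replicate number as a block, the shared fit called 47 genes, 29 of them among the 47 called without it, and 4 of the 10 genes (Mnd1, Gsto2, Mettl25 and Proca1). The block gave 22 called genes for brain, 21 for kidney, 7 for liver, 118 for muscle and 0 for spleen, where same-numbered libraries correlated at -0.384, -0.184 and 0.416.

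For brain, kidney, liver, muscle and spleen in this order, single-tissue counts were 28, 175, 72, 159 and 187 by DESeq2, beside 3, 4, 3, 4 and 45 by edgeR. With genes of at least 1 count kept they were 6, 45, 16, 66 and 74. With at least 10 counts in every library, kidney had 2 and spleen 0, and Exd1 in spleen had an adjusted p of 0.154. Leaving out 1 library gave brain counts of 0 to 1, kidney counts of 3 to 56, liver counts of 1 to 17, muscle counts of 1 to 2 and spleen counts of 0 to 29. The interaction count of 184 was 734 by DESeq2 and 26 with the 10-count filter, and the WT tissue count of 22473 was 11842 with that filter, which tests fewer genes. Of the single-tissue values, 3 changed sign, none of them called: P2rx1 in muscle was -0.04 without WT replicate 3 and -0.13 without heterozygous replicate 2 (range with 1 library left out -0.13 to 0.33), and Serpinb9 in spleen was -0.0039 without heterozygous replicate 1 (range -0.0039 to 0.33). Causes of these changes were not tested. Depth limits Gsto2, Exd1 and P2rx1 most, with WT libraries of as few as 8, 10 and 6 fragments.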
